A study of Mus musculus with 4 samples.

Results

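The steroidogenic genes of Leydig cells were examined in whole testes of 24-day-old Rfx2 mutant and control mice. The set held 10 genes chosen by name, namely Star, Cyp11a1, Hsd3b1, Hsd3b6, Cyp17a1, Hsd17b3, Insl3, Lhcgr, Nr5a1 and Scarb1, out of the 22311 gene symbols measured. All 10 were found, each as a single entry in every sample. RNA was sequenced from 2 Rfx2-/- samples (mutant 1 and mutant 2) and 2 control samples (control 1 and control 2), all from male mice and taken from total testicular cells without sorting. The mutation is a conventional deletion present in every cell, including Leydig cells. It replaces exons that encode the DNA-binding domain with a neomycin cassette, and the line came from a single embryonic stem cell clone. In the labels the control genotype is wild type and the strain is DBA, whereas the study's methods describe heterozygous controls on a mixed background of C57BL/6 and the strain of the targeted stem cells, so the number of wild-type Rfx2 alleles in the controls is uncertain. The study's methods speak of 2 independent samples per genotype and of 2 control mice, and do not say whether a mutant sample was 1 animal.

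Leydig cells lie between the seminiferous tubules and make testosterone and the peptide hormone INSL3. Luteinizing hormone binds its receptor, encoded by Lhcgr, and raises cyclic AMP, which drives the delivery of cholesterol to mitochondria. Scarb1 encodes a receptor that takes up lipoprotein cholesterol, and Star encodes the protein that moves cholesterol to the inner mitochondrial membrane. CYP11A1 cleaves the cholesterol side chain there to give pregnenolone, and 3-beta-hydroxysteroid dehydrogenases (Hsd3b1 and Hsd3b6), CYP17A1 and HSD17B3 carry out the following steps to testosterone. NR5A1, also called SF-1, is the transcription factor that switches on many of these genes. In the mouse, a fetal generation of Leydig cells is replaced after birth by an adult generation, and Hsd3b6 and Hsd17b3 are known as genes of the adult generation. Scarb1 and Nr5a1 are also known to be expressed in Sertoli cells.

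Values are FPKM, fragment numbers corrected for gene length and sequencing depth. An FPKM of at least 1 was found for 12557 to 12942 genes per sample, and the 12985 genes that reached this level in 2 or more samples were tested. Rfx2 had an FPKM of 36.7 in mutant 1, 39.8 in mutant 2, 123 in control 1 and 89.4 in control 2. Both mutant samples were thus below both controls, with a log2 fold change of -1.43 (SE 0.19, limma adjusted p = 0.00617), although the adjusted p rose to 0.0829 with median-ratio scaling, to 0.0607 without the filter and to 0.0628 without control replicate 1. Among all tested genes 2.52% were called lower and 0.308% were called higher in mutants, at an adjusted p under 0.05 (limma, Benjamini-Hochberg). The summed FPKM of 11 elongating spermatid genes was 2222 in mutant 1, against 8015 in mutant 2, 9282 in control 1 and 6435 in control 2. Mutant 1 therefore stood apart from the other 3 samples in its elongating spermatid transcripts. In whole testis RNA, fewer cells of a type and less RNA per cell cannot be told apart.

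None of the Leydig cell genes was called different between Rfx2 mutant and control testes. Of the 10 genes, 9 passed the filter and were tested, and 0 were called lower or higher beside backgrounds of 2.52% and 0.308%. At an unadjusted p under 0.05 the number was also 0. Mutant log2 means were above the control means for 6 genes and below them for 3, and the median log2 fold change was 0.12, beside 0.032 over all tested genes. Both mutants lay above both controls for 1 gene, Star, and below them for 1 gene, Hsd3b1, while 16.3% and 15.2% of all tested genes were separated in these directions. The 95% intervals reached past a 2-fold difference in at least 1 direction for 4 genes, Insl3, Hsd3b6, Hsd17b3 and Star, so these data do not show that these genes were alike in both genotypes.

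**Figure D1:**
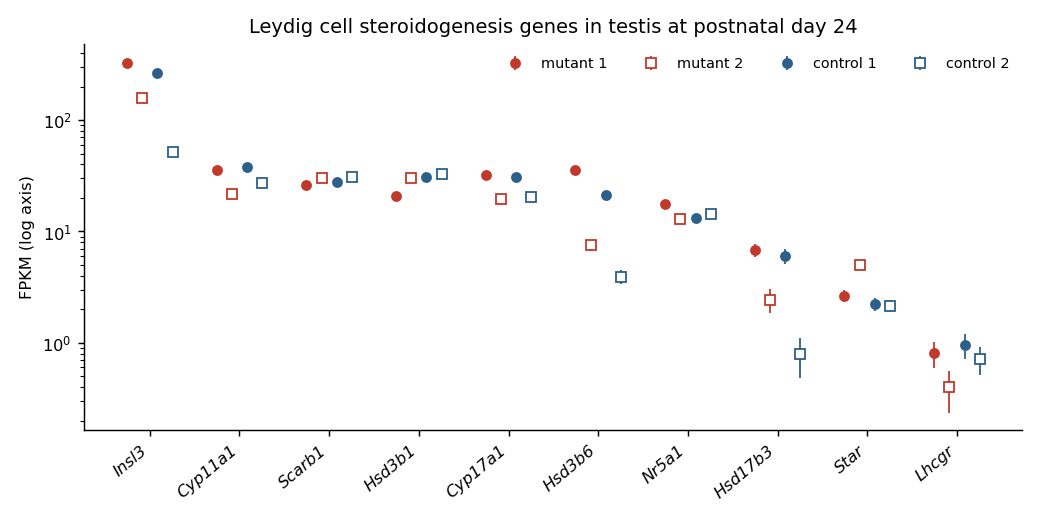
FPKM (log axis) of each of the 10 Leydig cell genes in mutant 1, mutant 2, control 1 and control 2. Insl3 spans 51.5 to 326 and Lhcgr 0.397 to 0.960, and for Hsd3b6, Hsd17b3 and Insl3 both samples numbered 1 lie above both samples numbered 2.

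The receptors and the cholesterol carrier were measured first. Lhcgr had the lowest level of the set, with an FPKM of 0.805 in mutant 1, 0.397 in mutant 2, 0.960 in control 1 and 0.711 in control 2. It was under 1 in every sample and was not tested, and the width of its deposited confidence bounds corresponds to 24 to 65 fragments per sample. Scarb1 had an FPKM of 26.1 and 30.2 in the mutants and 27.9 and 31.1 in the controls. The genotypes overlapped, and its log2 fold change of -0.065 had the narrowest interval of the set, from -0.46 to 0.33. Star had an FPKM of 2.65 in mutant 1, 4.98 in mutant 2, 2.23 in control 1 and 2.16 in control 2. Both mutants were above both controls, mutant 2 by far the most, and the controls had a ratio of 1.03 to each other. Its log2 fold change was 0.55 (SE 0.27, 95% interval -0.082 to 1.18), with an unadjusted p of 0.0794 from the fit across all genes in limma and an adjusted p of 0.743.

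Of the enzymes that start the pathway, Cyp11a1 and Cyp17a1 overlapped between the genotypes and Hsd3b1 did not. Cyp11a1 had an FPKM of 35.6 and 21.9 in mutants 1 and 2 and of 37.8 and 27.5 in controls 1 and 2. Its genotypes overlapped (28.7 ± 9.74 against 32.6 ± 7.34, SD, n = 2), and its log2 fold change was -0.20 with an interval from -0.80 to 0.40. Cyp17a1, which encodes the 17-alpha-hydroxylase and 17,20-lyase, followed the same order, with 32.5 and 19.7 in the mutants and 30.6 and 20.2 in the controls. Its log2 fold change was 0.022, with an interval from -0.62 to 0.67. Hsd3b1 had an FPKM of 20.9 in mutant 1, 30.5 in mutant 2, 31.0 in control 1 and 32.8 in control 2. Both mutants were below both controls, but mutant 2 was only just below control 1. The log2 fold change of Hsd3b1 was -0.33 (SE 0.21, interval -0.80 to 0.15) with an unadjusted limma p of 0.155 and an adjusted p of 0.986.

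Hsd3b6, Hsd17b3 and Insl3 had the widest spread of the set, and it lay within the genotypes. Hsd3b6 had an FPKM of 35.8 in mutant 1, 7.52 in mutant 2, 21.1 in control 1 and 3.92 in control 2. Hsd17b3, whose enzyme reduces androstenedione to testosterone, had 6.85, 2.44, 6.03 and 0.787 in the same order. Insl3 had 326, 157, 266 and 51.5. In each of the 3 genes both samples numbered 1 were high and both samples numbered 2 were low, with mutant 2 above control 2 in each. The log2 fold change between genotypes was 0.76 for Hsd3b6 (interval -1.06 to 2.59), 0.55 for Hsd17b3 (interval -0.89 to 1.99) and 0.94 for Insl3 (interval -0.61 to 2.50), none larger than the spread between replicates. These 3 values depended on single samples. Without mutant replicate 2, which leaves 1 mutant sample, they were 1.82 for Hsd3b6, 1.15 for Hsd17b3 and 1.46 for Insl3. Without control replicate 2 all 3 turned negative, at -0.32 for Hsd3b6, -0.44 for Hsd17b3 and -0.23 for Insl3. Without mutant replicate 1, Hsd3b6 was at -0.29 and Hsd17b3 at -0.045.

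Nr5a1 had an FPKM of 17.5 in mutant 1, 12.9 in mutant 2, 13.1 in control 1 and 14.4 in control 2. The genotypes overlapped, and the order of the samples was not that of Insl3 or Hsd3b6, since control 2 was above control 1. The log2 fold change of Nr5a1 was 0.12, with an interval from -0.36 to 0.60.

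**Figure D2:**
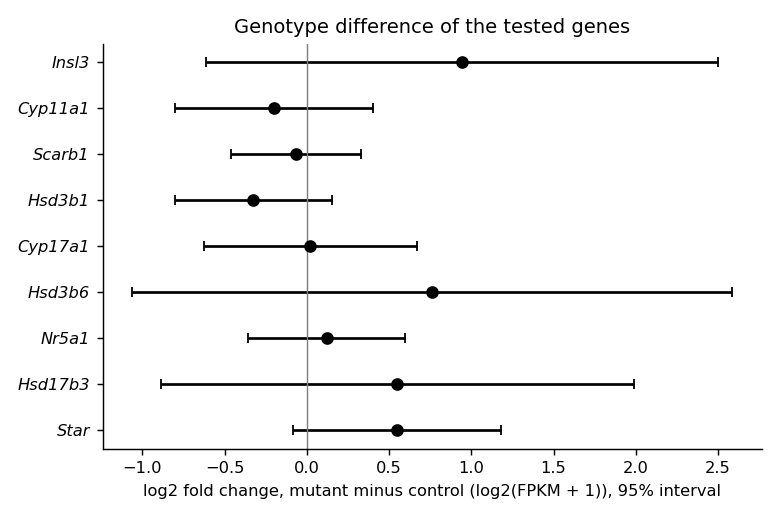
Log2 fold change (mutant minus control, on log2(FPKM + 1)) of the 9 tested genes, with bars for the 95% interval from limma. Each interval includes 0, and Hsd3b6, Insl3 and Hsd17b3 have the widest.

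Insl3 shares sequence with a neighbouring gene. Insl3 lies on chromosome 8, chr8:74213113-74214474 on the plus strand (NCBIM37, the same build as mm9). The annotated span of Jak3 on the same strand ends at the same base. In the annotation used here (GENCODE vM1), 404 of the 623 exonic bases of Insl3 (64.8%) are in both genes. The study's methods name a UCSC gene annotation, and the overlap in it was not examined. Jak3, a kinase of cytokine receptors, had an FPKM of 2.86 in mutant 1, 2.33 in mutant 2, 3.09 in control 1 and 1.9996 in control 2. How the authors' counting divided the shared fragments is not given in the sources used here, so the level of Insl3 is uncertain to that extent, and the level of Jak3 was far below that of Insl3 in each sample. Nr5a1 (chr2:38548176-38570062, minus strand) overlaps at its 5′ end the span of 4933433P16Rik on the opposite strand, but the annotated exons of the 2 genes share 0 bases.

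Hsd3b1 and Hsd3b6 are neighbouring paralogs, and their different behaviour rests on reads being assigned correctly between them. Hsd3b1 spans chr3:98656117-98663717 and Hsd3b6 spans chr3:98609427-98618366, both on the minus strand of NCBIM37. Their coding sequences are both 1122 bases long, and 1010 bases (90.0%) are identical. A stretch of 60 coding bases from each, positions 55 to 114 counted from the first base of the start codon, shows where the paralogs can be told apart. It was chosen as the stretch with the most differences that could be placed on the genome, so it is not typical of the coding sequence. Capitals mark the 14 bases at which the sequences differ. They were read from chr3:98661774-98661833 for Hsd3b1 and chr3:98614856-98614915 for Hsd3b6, minus strand, NCBIM37.
Hsd3b1: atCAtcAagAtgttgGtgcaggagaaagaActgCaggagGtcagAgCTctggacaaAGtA
Hsd3b6: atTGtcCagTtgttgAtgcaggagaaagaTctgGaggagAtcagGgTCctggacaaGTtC
Over the whole transcripts, 2.11% of the 50-base windows of Hsd3b1 were also in Hsd3b6, and 2.17% of those of Hsd3b6 were in Hsd3b1. Within the coding sequences, compared position by position, the longest run without a difference was 72 bases.

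The balance of the paralogs differed widely between samples of 1 genotype. The ratio of Hsd3b6 to Hsd3b1 was 1.71 in mutant 1, 0.247 in mutant 2, 0.679 in control 1 and 0.120 in control 2. Hsd3b6 was thus the more abundant form in mutant 1 only, and the less abundant form in the other 3 samples. The sum of both paralogs varied less, at 56.7 and 38.0 FPKM in the mutants and 52.1 and 36.7 in the controls.

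The differences between samples of 1 genotype were then compared with those of all tested genes. Both samples numbered 1 were above both samples numbered 2 for 6 of the 10 genes, namely Insl3, Hsd3b6, Hsd17b3, Cyp11a1, Cyp17a1 and Lhcgr. Of the 9 tested genes 5 were split in this way, beside 11.9% of all tested genes. For 2 genes, Hsd3b1 and Scarb1, sample 1 was below sample 2 in each genotype. The number of a sample carries no meaning across genotypes that the labels give. Mutant 1 exceeded mutant 2 by 4.76-fold for Hsd3b6, and control 1 exceeded control 2 by 5.37-fold. For Hsd17b3 the ratios were 2.81 and 7.65, and for Insl3 they were 2.07 and 5.16. They were smaller for Cyp11a1 (1.63 and 1.38), Cyp17a1 (1.65 and 1.51) and Lhcgr (2.03 and 1.35). In the controls, the difference on log2(FPKM + 1) was 2.35 for Insl3, 2.16 for Hsd3b6 and 1.98 for Hsd17b3, and a difference of at least that size in either direction was found for 0.0924%, 0.123% and 0.162% of the tested genes. In the mutants it was 1.04, 2.11 and 1.19, reached by 4.33%, 0.477% and 3.29%. A ratio of FPKM + 1 of at least 4 separated the controls for 20 tested genes (0.154%) and the mutants for 84 (0.647%). The deposited confidence bounds of control 1 and control 2 did not overlap for 5 of the 10 genes (Insl3, Hsd3b6, Hsd17b3, Cyp11a1 and Cyp17a1), and those of mutant 1 and mutant 2 did not overlap for any of the 10. These bounds cover the estimate within 1 library and not the spread between animals. In the mutants they were apart even for Scarb1, at a ratio of 0.865. The share of all tested genes with bounds apart was not computed, so these counts do not show a trait of this set.

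**Figure D3:**
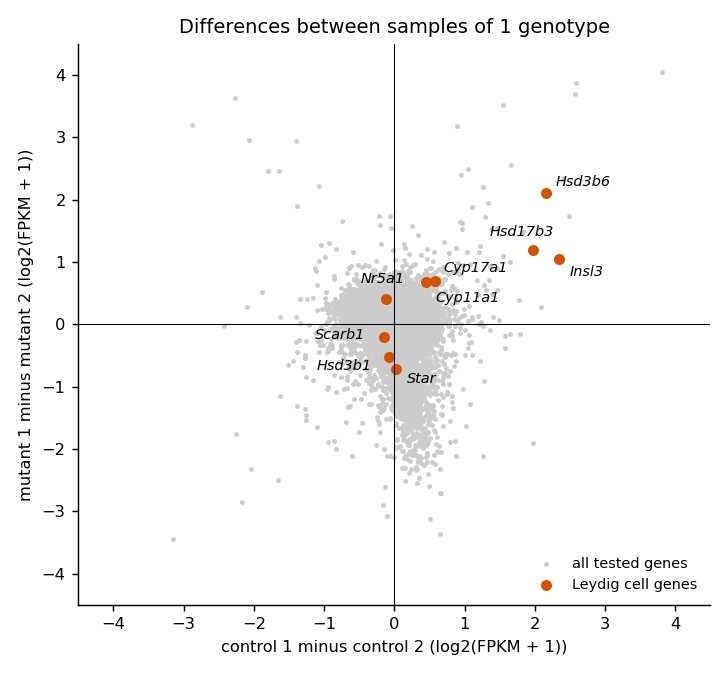
Difference between samples of 1 genotype on log2(FPKM + 1), control 1 minus control 2 (x axis) against mutant 1 minus mutant 2 (y axis), for the 12985 tested genes (grey) and the 9 tested Leydig cell genes (orange). Insl3, Hsd3b6 and Hsd17b3 lie to the upper right, away from the mass of genes, and 4 grey genes lie outside the axes.

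Ratios of genes within a sample do not depend on its depth. Hsd17b3 over Cyp17a1 was 0.211 in mutant 1, 0.124 in mutant 2, 0.197 in control 1 and 0.0389 in control 2. Insl3 over Star was 123, 31.6, 120 and 23.8, high in both samples numbered 1 and low in both samples numbered 2. The geometric mean of the 8 genes at 1 FPKM or more in every sample was 27.7 in mutant 1, 20.4 in mutant 2, 25.2 in control 1 and 15.6 in control 2. Divided by that mean, Cyp11a1 was 1.29 and 1.07 in the mutants against 1.4998 and 1.76 in the controls. Cyp17a1 was 1.17 and 0.963 against 1.21 and 1.29, and Lhcgr was 0.0291 and 0.0195 against 0.0381 and 0.0455. For these 3 genes both mutants were below both controls on that scale, while in FPKM their genotypes overlapped. The mean itself includes Insl3 and Hsd3b6 as well as Cyp11a1 and Cyp17a1. Its log2 difference, mutant minus control, was 0.26, and that lowers each mutant ratio. No share over all genes was computed on that scale. Cyp17a1 over Cyp11a1, a ratio added after the values were seen, was 0.911 and 0.900 in the mutants against 0.809 and 0.737 in the controls. With 2 samples against 2, the smallest p of an exact two-sided permutation test is 0.333, and the ratios are given without a test.

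Insl3 stood above the other genes in level, and most neighbours further down could not be ordered. Averaged over the 4 samples, Insl3 was highest at 200.1 FPKM, and its lowest sample (51.5) was above the highest sample of Cyp11a1 (37.8). Cyp11a1 (30.7), Scarb1 (28.83), Hsd3b1 (28.79), Cyp17a1 (25.7), Hsd3b6 (17.1) and Nr5a1 (14.5) followed, and the ranges of neighbours in this order overlapped. Hsd17b3 (4.03) and Star (3.005) came next, with overlapping ranges that did not reach those of Nr5a1. Lhcgr was lowest at 0.718, below every value of Star, although Hsd17b3 in control 2 (0.787) was below Lhcgr in mutant 1 (0.805) and control 1 (0.960).

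The promoters of Hsd3b6 and Insl3 are shown because these genes were high and low in the same samples, and that of Hsd3b1 because it is the paralog that did not have this pattern. RefSeq promoters (GRCm38.p6, from 250 bases before the start to 50 after it) were matched for 6 of the 10 genes by symbol, Insl3, Hsd3b6, Hsd3b1, Cyp11a1, Hsd17b3 and Lhcgr, with 2 starts for Cyp11a1. Star, Cyp17a1, Nr5a1 and Scarb1 were not matched. The 250 bases before the start are printed 5′ to 3′ on the gene's strand, from chr3:98814444-98814693 (minus strand) for Hsd3b6, chr3:98859795-98860044 (minus strand) for Hsd3b1 and chr8:71689002-71689251 (plus strand) for Insl3. Capitals mark matches to AGATAA, the letters of a GATA factor site, on either strand.
Hsd3b6: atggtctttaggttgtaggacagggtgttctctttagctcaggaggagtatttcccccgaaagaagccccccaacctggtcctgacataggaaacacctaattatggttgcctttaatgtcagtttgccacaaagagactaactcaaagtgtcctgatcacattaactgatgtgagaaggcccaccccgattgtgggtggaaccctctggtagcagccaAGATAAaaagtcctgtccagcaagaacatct
Hsd3b1: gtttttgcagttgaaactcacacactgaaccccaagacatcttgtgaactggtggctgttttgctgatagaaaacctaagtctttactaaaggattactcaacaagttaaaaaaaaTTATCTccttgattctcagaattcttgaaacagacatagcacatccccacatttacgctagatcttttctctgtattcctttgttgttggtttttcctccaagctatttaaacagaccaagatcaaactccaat
Insl3: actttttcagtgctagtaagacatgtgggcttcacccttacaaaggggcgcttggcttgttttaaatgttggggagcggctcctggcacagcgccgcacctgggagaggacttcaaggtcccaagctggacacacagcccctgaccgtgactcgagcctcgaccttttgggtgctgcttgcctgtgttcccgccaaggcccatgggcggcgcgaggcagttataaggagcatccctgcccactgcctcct
AGATAA was found in the promoters of 2 of the 6 genes. It lay from -31 to -26 on the gene's strand of Hsd3b6 and from -134 to -129 on the opposite strand of Hsd3b1, while 11.2% of all 32851 promoters held it. AAGGTCA, the letters bound by NR5A1, was in 0 of the 6 and in 4.72% of all promoters, and TATAAA was in 0 of the 6 and in 13.6% (both strands, no mismatch). AGATAA and TATAAA were searched after the values were known. A match is a description of letters in this window and not a bound site.

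The supply of cholesterol and electrons to the pathway was examined in lists of related genes. Over all 7 lists around the pathway, 93 of 95 genes were found and 74 were tested, of which 1 was called lower and 0 were called higher by limma, beside 2.52% and 0.308% of all tested genes. At an unadjusted p under 0.05 the numbers were 5 and 0, beside 6.68% and 2.01% of all tested genes, so the lower number was near the background. Without mutant replicate 2, 5 genes were called lower (Rxfp2, Nr4a1, Prkar2a, Plin2 and Lipe) and 0 were called higher, and this too was near the background of 7.3% and 0.786% in that setting. None of 19 tested genes of cholesterol synthesis was called, with a median log2 fold change of 0.083. The largest difference among them was for Mvk, mevalonate kinase, with 9.90 and 10.3 FPKM in the mutants and 7.92 and 6.06 in the controls (log2 fold change 0.48, limma adjusted p = 0.591). Srebf2, the master transcription factor of cholesterol synthesis, followed at 0.20. Hmgcs1, an enzyme gene that most cells use, was listed at 0 in all 4 samples, which may be a failed estimate. None of 14 genes of cholesterol storage and transport was called, with a median of 0.022. Plin2, a coat protein of lipid droplets, had 8.29 and 14.7 FPKM in the mutants and 19.4 and 17.9 in the controls, with a log2 fold change of -0.70 (limma adjusted p = 0.399). Lipe, the hormone-sensitive lipase, was at 12.3 in mutant 1 and at 29.8, 30.3 and 26.6 in mutant 2, control 1 and control 2. Mutant 1, the sample with few elongating spermatid transcripts, was thus the lowest for both Plin2 and Lipe, and the part of that in either value was not tested.

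Among 7 genes that pass electrons to the steroidogenic enzymes 0 were called, with a median log2 fold change of 0.038. Por, the reductase that serves CYP17A1, had 13.2 and 13.9 FPKM in the mutants against 9.35 and 11.3 in the controls (log2 fold change 0.37, limma adjusted p = 0.813), and Cyb5r3 was at 0.14. Of 18 other steroid enzymes, 13 were under 1 FPKM in every sample and 5 were tested, with 0 called and a median of 0.043. Srd5a1, a 5-alpha-reductase, had 3.77 and 2.35 in the mutants and 4.37 and 4.47 in the controls (log2 fold change -0.44, limma adjusted p = 0.876), and Srd5a3 was at -0.090.

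In the signalling chain from luteinizing hormone to cyclic AMP, 15 genes were tested and 0 were called, with a median log2 fold change of 0.069. Prkar2a, a regulatory subunit of protein kinase A, had the largest difference, with 2.92 and 5.77 FPKM in the mutants and 8.91 and 8.18 in the controls (log2 fold change -0.89, SE 0.29, limma adjusted p = 0.265). Adcy6, an adenylyl cyclase, was at 0.21. Of 11 tested transcription factors of Leydig cells 0 were called, with a median of 0.010. Nr4a1, an early-response nuclear receptor that luteinizing hormone induces in Leydig cells, had 3.94 and 5.04 FPKM in the mutants and 9.73 and 10.8 in the controls. Both mutants were well below both controls. Its log2 fold change was -1.04 (SE 0.22, interval -1.54 to -0.54), and its adjusted p of 0.05003 from limma lay just above the threshold. Nr4a1 was called under 4 of the alternatives, at adjusted p-values of 0.0405 without the trend, 0.00964 with robust variances, 0.0491 with the highest entry of a symbol and 0.00350 without mutant replicate 2 (range over all alternatives 0.00350 to 0.348). Gata6, of the GATA family, was at -0.25.

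The receptor of INSL3 was the gene around the pathway that was called. Rxfp2, known from the gubernaculum and from germ cells of the testis, had an FPKM of 0.167 in mutant 1, 0.195 in mutant 2, 2.84 in control 1 and 2.31 in control 2. Both mutants were near 0 and far below both controls, while the mutant levels of its ligand gene Insl3 (326 and 157) overlapped those of the controls (266 and 51.5). Rxfp2 fell by 1.60 on the log2(FPKM + 1) scale (SE 0.19, interval -2.04 to -1.15, limma adjusted p = 0.00326), which understates the change of a gene this low. It was called in each alternative in which it could be tested. Of the 6 genes in the list of hormone receptors and targets, 4 were found and 3 were tested, and Cldn3, a claudin of the blood-testis barrier, was at -0.54 (limma adjusted p = 0.522).

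**Figure D4:**
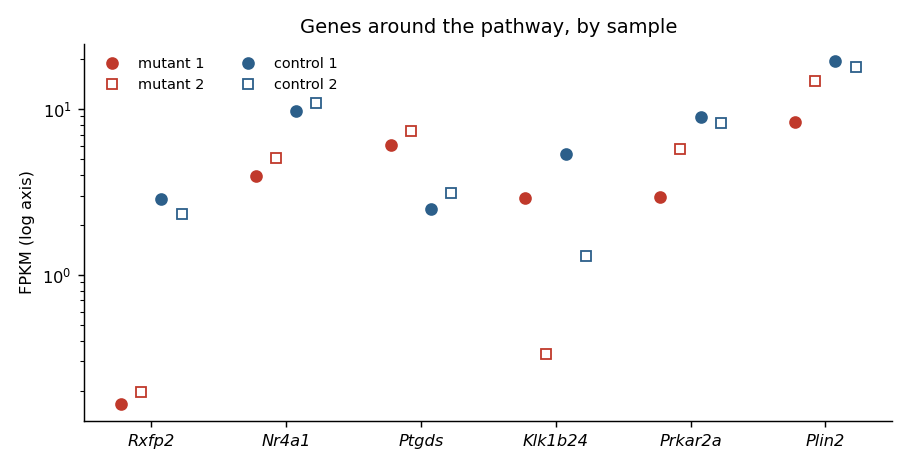
FPKM (log axis) of 6 genes around the pathway in each sample, with mutants in red and controls in blue. Rxfp2 is 0.167 and 0.195 in the mutants against 2.84 and 2.31 in the controls, Nr4a1, Prkar2a and Plin2 are lower and Ptgds is higher in both mutants, and Klk1b24 differs more within than between the genotypes.

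Other markers of Leydig cells partly had the same split by sample as Insl3. Of 11 such genes 8 were tested and 0 were called, with a median log2 fold change of -0.10. At an unadjusted limma p under 0.05, 2 passed, both upward. At that threshold 2.01% of all tested genes were higher and 6.68% were lower. For 6 of the 11, all of them tested, sample 1 was above sample 2 in each genotype, beside 21.2% of all tested genes. The same was found for 4 of 11 spermatocyte genes, 4 of 16 genes of cyclic AMP signalling and 3 of 10 macrophage genes. It was found for 0 of 12 Sertoli cell genes and for 0 of 14 transcription factors of Leydig cells. Klk1b24, a tissue kallikrein of Leydig cells, had an FPKM of 2.90 in mutant 1, 0.334 in mutant 2, 5.35 in control 1 and 1.30 in control 2. The genes that follow were chosen after their values were seen. The kallikreins Klk1b21 (1.88, 0.498, 4.33 and 1.07) and Klk1b27 (1.51, 0.339, 2.29 and 0.192) were also higher in sample 1 of each genotype. So were Vcam1 (9.34, 3.68, 9.44 and 5.09) and Prlr (1.19, 0.453, 1.10 and 0.631). Dlk1 (0.738, 0.868, 0.385 and 1.40) and Thbs2 (0.343, 0.510, 0.303 and 0.807) were instead lower in sample 1 of each genotype. Ptgds, a prostaglandin D synthase, had another pattern, with 6.09 and 7.33 in the mutants and 2.48 and 3.11 in the controls. Its log2 fold change was 1.02 (SE 0.22, interval 0.50 to 1.54) and its limma adjusted p was 0.0645, with calls at 0.0453 without the trend, 0.0173 with robust variances and 0.0248 without mutant replicate 1 (range over all alternatives 0.0173 to 0.453). The summed FPKM of the 11 genes was 32.1 and 18.8 in the mutants and 30.9 and 19.3 in the controls. For the 10 steroidogenic genes it was 504, 288, 437 and 185, of which Insl3 alone gave 326, 157, 266 and 51.5. Without mutant replicate 1, Klk1b21 and Klk1b24 were called lower (3.33% of all tested genes were, in that setting), and without mutant replicate 2, Ren1, which encodes renin, was called higher (0.786% of all tested genes).

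Markers of the other somatic cells in a testis did not follow that split in summed level. Summed over 12 Sertoli cell genes, which nurse the germ cells inside the tubules, the FPKM was 889 and 778 in the mutants and 604 and 835 in the controls. Of these 11 were tested and 0 were called. All 11 had log2 fold changes above 0, with a median of 0.13 beside 0.032 over all tested genes. The largest were Trf (0.34) and Clu (0.28). Both mutants were above both controls for 1 of the 11, and control 1 had the lowest sum. The share of all tested genes with a value above 0 was not computed. Peritubular myoid genes summed to 168, 214, 203 and 222, with Actg2 at -0.59 and Tagln at -0.20. Macrophage genes summed to 61.8, 40.1, 50.1 and 63.2, with Lyz2 at -0.37 and Cd68 at -0.32. Endothelial genes summed to between 6.52 and 8.17, with Vwf at -0.44 and Cdh5 at 0.21. In none of these lists were both samples numbered 1 above both samples numbered 2 in summed level. For the adrenal cortex, another steroidogenic tissue, most markers were low. Cyp11b1 and Cyp11b2 were listed at 0 in every sample, as Hmgcs1 was, so that these zeros may be failed estimates. Cyp21a1 was between 0.174 and 0.565 FPKM, Mc2r was at most 0.0762, and Mrap was between 2.04 and 3.73.

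**Figure D5:**
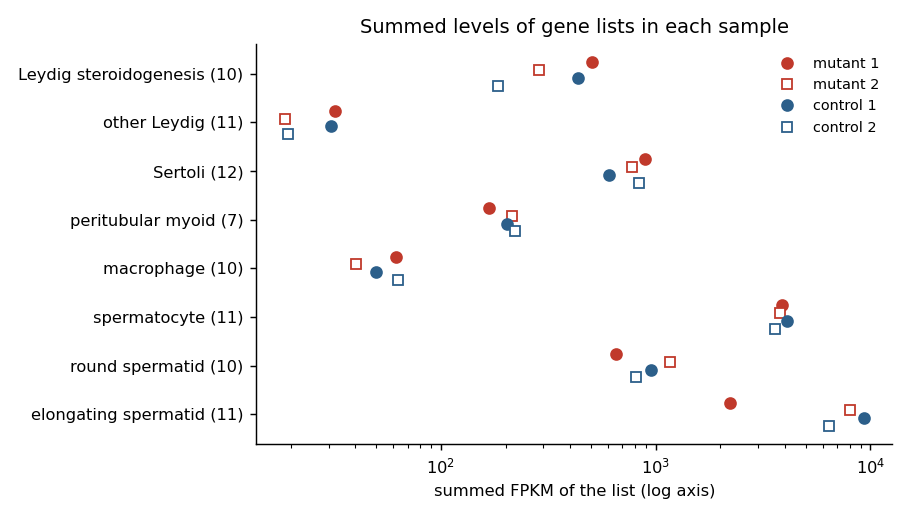
Summed FPKM (log axis) of the steroidogenic genes and of marker lists of other cell types in each sample, with the number of genes in brackets. The 2 Leydig lists and, by less, the spermatocyte list are higher in both samples numbered 1, and the elongating spermatid list is lowest in mutant 1 at 2222. Single genes give a large part of some sums, such as Insl3 (51.5 to 326), Clu of the Sertoli list (368 to 556) and Ldhc of the spermatocyte list (2155 to 2602).

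Germ cell markers differed by stage. Spermatogonia genes summed to between 381 and 446 FPKM, of which Dmrtb1 alone gave 279 to 374, with Kit at -0.22 and Stra8 at 0.19. Spermatocyte genes summed to 3855 in mutant 1, 3784 in mutant 2, 4073 in control 1 and 3590 in control 2, with Pgk2 at -0.53 and Dmc1 at 0.23. Both samples numbered 1 were thus above both samples numbered 2 for this list as well, by less than for the Leydig lists. Round spermatid genes summed to 657 in mutant 1, 1168 in mutant 2, 951 in control 1 and 811 in control 2, with Izumo1 at -0.38 and Catsper4 at 0.36. Elongating spermatid genes had a median log2 fold change of -0.41, with Prm1 at -1.89 and Prm2 at -1.86, and 0 of 11 were called. Without mutant replicate 2, 7 of the 11 and 4 of the 10 round spermatid genes were called lower, beside 7.3% of all tested genes in that setting, and without mutant replicate 1 none of the 11 was. Erythrocyte genes summed to 49.6 and 128 in the mutants and 76.5 and 197 in the controls, so both samples numbered 2 held more of these blood transcripts and less of the Leydig transcripts. Hbb-b2 was at -1.80 and Hba-a2 at -1.08, and globin genes are near-identical copies whose reads can be split between them. Of 5 tested erythrocyte genes 0 were called, but without mutant replicate 2 the number called lower was 4 (7.3% of all tested genes), and without mutant replicate 1 it was 2, with 2 called higher (3.33% and 1.25% of all tested genes). The part of blood or of germ cell content in the Leydig values was not tested. Epididymis genes summed to 8.80, 1.27, 1.54 and 6.16, with Crisp1 at 0.49 and Rnase10 at -0.42.

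Genes most like the steroidogenic set in pattern were sought among 8645 genes outside the set with a mean FPKM of at least 5. Leydig cell markers below that mean, such as Klk1b21 and Prlr, could not be found this way. Likeness was the root mean square difference from the median profile of the 9 tested genes, on centred log2(FPKM + 1) over 4 samples. The closest was Dynlt1a, with 323, 248, 325 and 214 FPKM in mutant 1, mutant 2, control 1 and control 2 (difference 0.035). Nnt (0.035), Shmt1 (0.037), Slc22a18 (0.041) and Tcp10a (0.050) followed. With 4 samples, a short distance is a description of these values only.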

How the data were processed

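RNA from whole testes of 24-day-old mice (2 Rfx2 mutant, 2 control samples) was sequenced by the authors, and aligned to mm9 with TopHat2 2.0.6 according to the submitters' processing notes, which also name Cuffdiff. The authors deposited FPKM per gene from Cufflinks with the bounds of its confidence interval, normalized for gene length and depth within a sample, without raw counts. Counts were not used here, and the fragments that correspond to the bounds are estimates.

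Entries sharing a symbol were summed (22311 genes from 22553 to 22563 entries), 1 was added and log2 was taken. Genes with FPKM of at least 1 in at least 2 samples (12985) were tested with limma 3.58.1 in R 4.3.3 (lmFit, eBayes with trend), two-sided, without covariates, with Benjamini-Hochberg adjustment over all tested genes and a threshold of 0.05. The fit was tested on simulated data. Tables used python 3.11.15, numpy 2.4.6 and pandas 2.3.3, and figures matplotlib 3.10.9.

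The genes and lists were chosen with earlier results of these data known. Named genes are the 10 members, Rfx2, of each list the called genes or otherwise the 2 tested genes with the largest absolute difference, and the 5 genes most like the median profile. Others are named as chosen after their values were seen, or to give the level of a list. Gene positions are from GENCODE vM1 on NCBIM37, and promoters from RefSeq on GRCm38.p6. Alternatives were pseudocounts of 0.1 and 0.01, other filters, median-ratio scaling, quantile normalization, eBayes without trend or robust, a replicate block, the highest entry of a symbol, the ratio of mean FPKM and each replicate left out. The crossed block, and the alternatives for single list genes and most list counts, were added after seeing the data.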

Additional observations from a re-analysis of the deposited data

How the results depend on the processing

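The 10 genes gave 0 lower calls under every alternative run. The number called higher was 0 as reported. Among the alternatives that kept all 4 samples it was 1 with the replicate block only, beside 0.539% of all tested genes in that setting. That gene was Insl3 (log2 fold change 0.94, limma adjusted p = 0.00399, against 0.838 with the crossed block). Without mutant replicate 2, which leaves 1 mutant sample, the log2 fold changes were 1.82 for Hsd3b6, 1.46 for Insl3 and 1.15 for Hsd17b3. The median log2 fold change of the set was 0.12. It ranged from -0.27 to 0.32 when leaving out a replicate and from 0.071 to 0.16 otherwise. With a replicate left out, the lone sample is assumed to vary like the other group. Single log2 fold changes that reversed did so only when leaving out a replicate, with ranges of -0.54 to 0.14 for Cyp11a1, -0.33 to 0.37 for Cyp17a1, -0.44 to 1.54 for Hsd17b3, -0.32 to 1.85 for Hsd3b6, -0.23 to 2.11 for Insl3, -0.085 to 0.32 for Nr5a1 and -0.17 to 0.036 for Scarb1. Star (0.19 to 0.90) and Hsd3b1 (-0.59 to -0.065) kept their direction. Star, Rxfp2 and Lhcgr could not be tested with the filter at 5 FPKM.

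Genes called lower in the lists beside the members numbered 1 as reported, 0 with the filter at 5 FPKM, 2 without the trend and with robust variances, 3 with the highest entry of a symbol and with the crossed block, 6 with the replicate block, and 1 to 21 when leaving out a replicate (21 without mutant replicate 2). Genes called higher numbered 0, 1 without the trend and with robust variances, and 0 to 4 when leaving out a replicate. Over all genes, 327 lower and 40 higher calls became 206 and 16 with median-ratio scaling, 221 and 30 with quantile normalization, 199 and 17 without the filter, 202 and 17 with the filter at 5 FPKM, 427 and 67 with robust variances, and 167 to 948 and 13 to 162 when leaving out a replicate.

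Samples share replicate numbers in the labels, but over 12985 genes mutant 1 and control 1 deviated from their group means with a correlation of -0.15, so the numbers were not taken to pair them. The replicate block gave 525 lower and 70 higher calls over all genes, and the crossed pairing 266 and 28. A block leaves 1 residual degree of freedom. The cause of these changes was not tested. Genes with few fragments, such as Lhcgr, are imprecise at this depth, and a gene that was not called was not shown to be unchanged.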

Other observations

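The joint pattern of Hsd3b6, Insl3 and Hsd17b3 was compared with that of all genes with a mean FPKM of at least 5, a comparison chosen after the values were seen. The genes closest to the mean profile of these 3 were Gm2897, with an FPKM of 14.9 in mutant 1, 3.79 in mutant 2, 8.28 in control 1 and 2.80 in control 2, and Rdm1, with 9.95, 2.90, 11.4 and 2.49. Their root mean square differences from the profile were 0.34 and 0.40 on the log2(FPKM + 1) scale. Over all tested genes, the SD of the difference between replicates was 0.47 in the mutants and 0.35 in the controls. That SD is a different measure, so whether these genes lie within replicate spread of the profile was not tested. Snhg6, a host gene of small nucleolar RNAs, was next with 29.2, 20.6, 19.1 and 6.64 (difference 0.46). The ratio of Insl3 to Cyp11a1, also added after the values were seen, was 9.14 and 7.20 in the mutants and 7.03 and 1.88 in the controls, with both mutants above both controls and mutant 2 close to control 1.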
